A study of Mus musculus with 2 samples.

Results

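The genes for iron storage, export and heme recycling were examined in adipose tissue macrophages (ATM), the macrophages that live in or enter fat. They were chosen by name. They were the ferritin chains Ftl1 and Fth1, the heme-degrading enzyme Hmox1, the heme transporter Slc48a1, the iron exporter Slc40a1, the iron importers Tfrc, Slc11a1 and Slc11a2, and the regulators Ireb2 and Aco1. Of these 10 genes, 9 had a row among the 20330 gene identifiers of the deposited table, and Fth1 was not analysed here.

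RNA sequencing compared ATM sorted for F4/80 and CD11b from visceral fat of C57BL/6 mice that had eaten a high-fat diet for 12 weeks. All animals were ApoE-/- and Hif-1αfl/fl, so by their label the WT animals also lacked ApoE and carried the loxP-flanked alleles. The KO mice were hMRP8cre+ and the WT mice hMRP8cre-. The human MRP8 promoter drives Cre in the myeloid lineage, so neutrophils and monocytes are targeted as well as ATM, and deletion need not reach every sorted cell. The labels do not give the age of the mice or how many were pooled. There was 1 library per genotype and no replicate, so the differences below have no replicate check and no p-value.

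Macrophages clear old red cells and dying cells and are therefore a main site of iron turnover. Heme from the cargo leaves the phagolysosome through the transporter encoded by Slc48a1 and is opened by heme oxygenase-1 (Hmox1), which frees iron, carbon monoxide and biliverdin. Freed iron is held in a shell of ferritin light and heavy chains or leaves the cell through ferroportin (Slc40a1). Iron bound to transferrin enters through the transferrin receptor (Tfrc). When iron is scarce, the iron regulatory proteins encoded by Aco1 and Ireb2 bind a hairpin in the mRNA, the iron-responsive element. Binding near the 5′ end blocks translation, and binding in the 3′ untranslated region protects the mRNA from decay. HIF-1, the factor whose subunit was targeted, is known to act on several iron genes, Hmox1 and Tfrc among them.

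The hairpins are shown because a 5′ position is linked to control at translation and a 3′ position to control at mRNA stability. Only the second kind of control would be visible in mRNA levels. Annotated coding transcripts of GENCODE M21 were searched on the sense strand for a C, 5 bases, the loop CAGTG followed by any base but G, and 5 bases that pair with the first 5, with G opposite T allowed. A match in an untranslated region was found in 123 of 21901 coding genes (0.562%), with 23 genes in the 5′ and 100 in the 3′ untranslated region. Of the 10 genes, 4 held a match. In the lines below the bulged C and the loop of 6 bases are in capitals, each run is 30 bases, and coordinates are GRCm38.
Ftl1, 5′ untranslated region, chr7:45459779-45459808, minus strand: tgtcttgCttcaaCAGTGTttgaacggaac
Fth1, 5′ untranslated region, chr19:9982731-9982760, plus strand: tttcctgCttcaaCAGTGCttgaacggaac
Slc40a1, 5′ untranslated region, chr1:45925465-45925494, minus strand: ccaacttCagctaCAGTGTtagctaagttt
Tfrc, 3′ untranslated region, chr16:32631218-32631247, plus strand: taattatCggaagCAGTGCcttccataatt
Tfrc, 3′ untranslated region, chr16:32631597-32631626, plus strand: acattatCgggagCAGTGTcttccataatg
Tfrc, 3′ untranslated region, chr16:32631662-32631691, plus strand: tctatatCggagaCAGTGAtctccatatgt
Tfrc, 3′ untranslated region, chr16:32631709-32631738, plus strand: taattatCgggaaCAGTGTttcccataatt

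Ftl1 and Fth1 carried the same 5 bases on each side of the loop. The hairpin was in 1 of 2 coding transcripts of Ftl1, 4 of 5 of Fth1 and 1 of 4 of Slc40a1, and those of Tfrc were in 1 of 3, and the FPKM of a gene does not tell its transcripts apart. A hairpin that departs from this pattern was not searched for, so the absence of a match in Slc11a2 says only that these letters are not in its annotated transcripts. Of the 72 genes with a match that could be compared, 10 were at least 3-fold higher in KO and 9 at least 3-fold lower, and their median change was 0.01. Over all genes compared these shares were 13.6% and 13.7%, near those of the 72.

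Values are FPKM, fragments per kilobase of transcript scaled to the mapped fragments of the library. Change is log2(FPKM + 1), KO minus WT, and this scale understates the change of low genes. Summed FPKM was 585823 in WT and 568329 in KO, and the smallest recurring value put the depth at about 6000000 and 7660000 fragments. Of 12 macrophage markers 11 had a row, and all 11 were above 0 in both libraries, with Adgre1 (F4/80) at 299 and 239 FPKM and Itgam (CD11b) at 128 in each. The summed levels of the T and NK cell, B cell, dendritic cell, endothelial, mesothelial, and mast cell and eosinophil lists did not exceed 18.4 FPKM in WT or 17.9 in KO. The dendritic cell list summed to 4.87 FPKM (WT) and 17.9 FPKM (KO), and of its 4 compared genes 2 were higher and 2 lower. The higher ones were Zbtb46 at 0 and 9.45 FPKM and Siglech at 1.42 and 8.31, both past 3-fold. At a mean of 1 to 10 FPKM, where both lie, 45.6% of all genes were past 3-fold. The lower ones were Xcr1 at 1.65 and 0.0588 FPKM and Dpp4 at 1.27 and 0, neither past 3-fold in log2(FPKM + 1). The part of these cells in the iron gene values was not tested. Many markers of the lists above were listed at 0, as were some genes that most cells use (Uros, Nubp2 and Hscb in WT). A listed 0 therefore does not show that a cell type was absent. Fibroblast markers summed to 52.2 and 95.6 FPKM and adipocyte markers to 113 and 120, the latter mostly Fabp4, which macrophages also express. Hif1a stood at 30.4 FPKM (WT) and 20.97 FPKM (KO). The value covers the whole gene, and the floxed exon was not analysed here, so it does not check the deletion. Apoe was at 94.3 and 117 FPKM although both genotypes are labelled ApoE-/-. Here too the disrupted part was not looked at on its own, so the level does not check the label.

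The spread of all genes sets the scale on which the iron genes are read. Of the 10297 genes that reached 1 FPKM in either library, 27.3% were past 3-fold, 13.6% higher and 13.7% lower in KO, and 45.6% were past 2-fold. The spread narrowed as expression rose. At a mean of 1 to 10 FPKM 45.6% of genes were past 3-fold and 60.6% past 2-fold. At 10 to 100 FPKM the shares were 14.6% and 30.4%, at 100 to 1000 FPKM 1.99% and 7.81%, and at 1000 FPKM or more 3.16% and 7.37%. The median absolute change over these ranges was 1.40, 0.61, 0.31 and 0.22.

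None of the 9 iron genes was past 3-fold or past 2-fold. Their changes ran from -0.78 for Tfrc to 0.75 for Hmox1, with 6 values above 0 and 3 below. The median was 0.18, against 0.03 over all genes compared. The order of the 9 levels was the same in WT and KO. It ran from Ftl1 through Hmox1, Slc11a1, Slc11a2, Slc48a1, Tfrc, Slc40a1 and Aco1 to Ireb2, and the highest level was 8514 times the lowest in WT and 5534 times in KO. Together the 9 genes made up 1.95% (WT) and 1.79% (KO) of all FPKM.

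**Figure D1:**
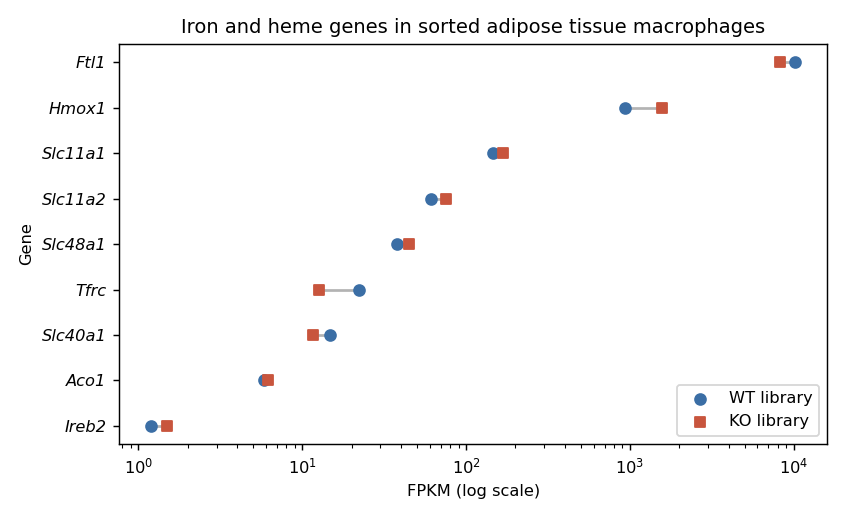
FPKM (x axis, log scale) of the 9 measured iron and heme genes (y axis) in the WT library (circles) and the KO library (squares), joined by a grey line, with 1 library per genotype and no error bars. The widest gaps on this scale are those of Tfrc, at 22.3 and 12.6 FPKM, and Hmox1, at 937 and 1576 FPKM, and no pair is 2-fold apart.

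Ferritin light chain was the most abundant of these transcripts. Ftl1 (ENSMUSG00000050708, GRCm38 chr7:45457944-45459884) stood at 10199 FPKM (WT) and 8264 FPKM (KO). It was the third most abundant gene of the whole WT library and the fourth of the KO library, and accounted for 1.74% and 1.45% of all FPKM. The KO level was 0.810 times the WT level, a change of -0.30. Of the 95 genes at 1000 FPKM or more, 34.7% differed by as much or more in either direction. The light chain favours the build-up of the iron core, while the heavy chain, encoded by Fth1, oxidises iron on entry. About 59194 (WT) and 61275 (KO) fragments stand behind the value. Ferritin genes have processed copies in the genome, and how reads that fit several places were treated is not given in the sources used here. The 6 Fthl17 genes, ferritin heavy chain-like copies, were listed at 0 in both libraries.

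Hmox1 had the largest positive change among the 9 genes. Hmox1 (ENSMUSG00000005413, GRCm38 chr8:75093621-75100589), which encodes the inducible heme oxygenase, stood at 937 FPKM (WT) and 1576 FPKM (KO). The KO level was 1.68 times the WT level, a change of 0.75, and its rank moved from 101 to 50 among all genes above 0. Of the 95 genes of its range of expression, 10.5% differed by as much or more. This was the smallest such share among the 9 genes. About 8819 (WT) and 18938 (KO) fragments stand behind these levels.

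Slc48a1 (ENSMUSG00000081534, GRCm38 chr15:97778520-97792692), which moves heme from the phagolysosome to the cytosol, stood at 37.8 FPKM (WT) and 45.0 FPKM (KO). The change was 0.25, and 76.8% of the 4239 genes at 10 to 100 FPKM differed by as much or more. Within a library, Hmox1 was 24.8 times the level of Slc48a1 in WT and 35.0 times in KO. FPKM is per length, and a ratio of this kind does not depend on how the libraries were scaled.

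The genes for iron export and for uptake of transferrin-bound iron both had lower values in KO. Slc40a1 (ENSMUSG00000025993, GRCm38 chr1:45908068-45926523), which encodes ferroportin, stood at 14.7 FPKM (WT) and 11.7 FPKM (KO). The change was -0.31, and the values rest on about 297 and 301 fragments. In its range of expression 71.5% of genes differed by as much or more. Tfrc (ENSMUSG00000022797, GRCm38 chr16:32608920-32632794), which encodes the transferrin receptor, stood at 22.3 FPKM (WT) and 12.6 FPKM (KO). The WT level was 1.77 times the KO level, a change of -0.78, with about 655 and 472 fragments behind the values. This was the most negative change among the 9 genes, and 40.2% of genes in its range differed by as much or more.

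The 2 transport genes are neighbours in the order of levels. Exact Poisson intervals at 95%, which cover counting error only and rest on the estimated depth, were 20.7 to 24.1 FPKM for Tfrc and 13.1 to 16.5 for Slc40a1 in WT. In KO they overlapped, at 11.5 to 13.8 and 10.4 to 13.1. Slc40a1 was thus 0.658 times the level of Tfrc in WT and 0.927 times in KO. The ratio of Ftl1 to Slc40a1, storage to export, was 694 in WT and 708 in KO, and the KO ratio was 1.02 times the WT ratio.

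The carriers of free iron had somewhat higher values in KO. Slc11a1 (ENSMUSG00000026177, GRCm38 chr1:74375195-74386062), also called NRAMP1, moves iron out of the phagosome and limits the growth of microbes there. It stood at 145 FPKM (WT) and 167 FPKM (KO), a change of 0.20, and 66.2% of the 653 genes at 100 to 1000 FPKM differed by as much or more. Slc11a2 (ENSMUSG00000023030, GRCm38 chr15:100387898-100425072), also called DMT1, carries ferrous iron across endosomal and plasma membranes. It stood at 60.7 FPKM (WT) and 75.8 FPKM (KO), a change of 0.32, as large as or smaller than that of 70.8% of genes in its range. Slc11a1 was 2.40 times the level of Slc11a2 in WT and 2.21 times in KO. Slc11a1 is also used by neutrophils, whose markers differed between the libraries. Of 10 neutrophil markers with a row, 6 were at 0 in WT and 4 in KO, including Elane, Camp and Ltf in both. All 6 that could be compared were higher in KO, 3 of them past 3-fold, with a median change of 1.52. Mpo and Ngp, among those past 3-fold, were listed at 0 in WT. The shares of all genes past 3-fold were 13.6% higher and 13.7% lower. The summed level of the list was 143 FPKM in WT and 499 in KO, mostly S100a8 at 73.3 and 182 FPKM and S100a9 at 63.4 and 301. Their part in the Slc11a1 values was not tested. In sorted bulk RNA, a change in the number of cells of a type and a change in RNA per cell cannot be told apart.

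The iron regulatory proteins had the lowest levels of the group. Aco1 (ENSMUSG00000028405, GRCm38 chr4:40143081-40198338) encodes IRP1, which is a cytosolic aconitase when it holds an iron-sulfur cluster and binds RNA when it does not. It stood at 5.88 FPKM (WT) and 6.16 FPKM (KO), with intervals of 4.93 to 6.95 and 5.30 to 7.13 for counting error, and its change was 0.06. Ireb2 (ENSMUSG00000032293, GRCm38 chr9:54863789-54912530) encodes IRP2, which is degraded when iron is plentiful. It stood at 1.20 FPKM (WT) and 1.49 FPKM (KO), with intervals of 0.851 to 1.61 and 1.15 to 1.90, on an estimated 41 and 66 fragments. Its change was 0.18. For both genes the intervals of the libraries overlapped, and a difference was not detectable at the estimated depth. Of the 4790 genes at 1 to 10 FPKM, 97.2% differed by at least as much as Aco1 and 91.1% by at least as much as Ireb2. Aco1 was 4.91 times the level of Ireb2 in WT and 4.13 times in KO.

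**Figure D2:**
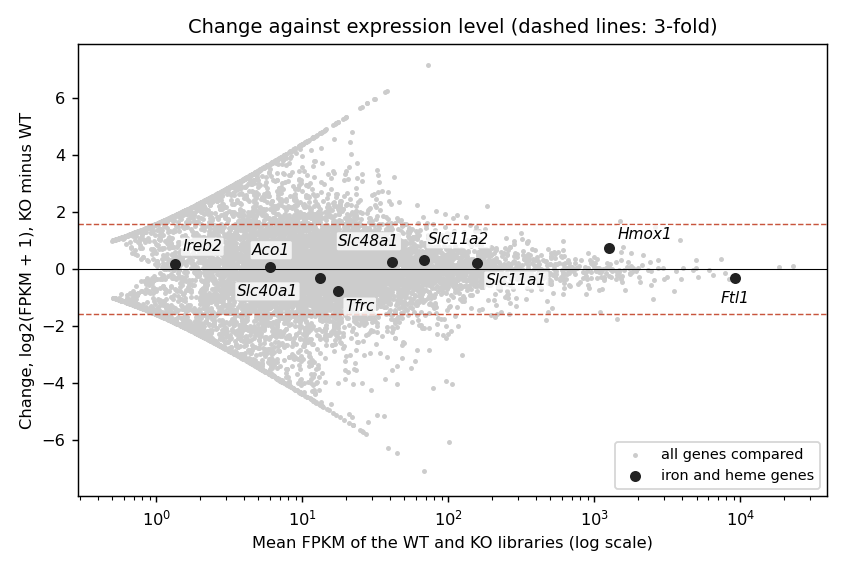
Change in log2(FPKM + 1), KO minus WT (y axis), against the mean FPKM of both libraries (x axis, log scale) for the 10297 genes compared (grey) and the 9 iron and heme genes (black, named). All 9 lie between the dashed lines at 3-fold, and the grey cloud narrows from a median absolute change of 1.40 at 1 to 10 FPKM to 0.22 at 1000 FPKM or more.

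The genes with 5′ and 3′ hairpins were then set side by side. Ftl1 and Slc40a1, with a hairpin in the 5′ untranslated region of 1 transcript each, had changes of -0.30 and -0.31. Tfrc, with 4 hairpins in the 3′ untranslated region of 1 transcript, had a change of -0.78. None of the 3 was past 2-fold. Of all genes 30.4% were past it at 10 to 100 FPKM, where Slc40a1 and Tfrc lie. At 1000 FPKM or more, where Ftl1 lies, the share was 7.37%. The median over the 72 compared genes with a match was 0.01.

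The rest of heme handling was examined next. This list of 14 genes covers heme uptake, breakdown and export. Of 12 that could be compared, 2 were past 3-fold higher in KO, 4 were past 3-fold lower and 6 were neither, against 13.6% and 13.7% of all genes in those directions. The median change was -0.92, against 0.03 over all genes, and was -0.37 where both libraries had to reach 1 FPKM and -0.36 with no filter. Cd163, the receptor for hemoglobin bound to haptoglobin, stood at 130 FPKM (WT) and 214 FPKM (KO), a change of 0.71. Lrp1, the receptor for heme bound to hemopexin, was at 112 and 88.2 FPKM. Por, which passes electrons to heme oxygenase, was at 49.8 and 106 FPKM. Hmox2, the constitutive heme oxygenase, was at 161 and 124 FPKM, below Hmox1 in both libraries.

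The biliverdin reductase genes had lower values in KO, the opposite direction to Hmox1. Blvrb, one of the biliverdin reductases, stood at 388 FPKM (WT) and 130 FPKM (KO). Its WT level was 2.99 times the KO level, a change of -1.57 that lies just inside the 3-fold threshold, at a mean level where 1.99% of genes passed it. Blvra, which turns biliverdin into bilirubin, stood at 48.1 FPKM (WT) and 5.04 FPKM (KO), a change of -3.02. Flvcr1, which exports heme, was at 12.3 and 0.418 FPKM, the latter an estimated 13 fragments. Abcg2, also able to export heme and porphyrins, was at 10.9 and 2.35 FPKM. Pgrmc1, a heme-binding membrane protein, was at 48.7 and 9.70 FPKM. The higher genes were Slc46a1, a folate carrier that can also take up heme, at 3.61 and 16.9 FPKM, and Abcb6, a porphyrin transporter, at 3.20 FPKM in KO with 0 listed for WT. Except for Blvrb these genes lay at levels where 14.6% or more of all genes were past 3-fold. Of 13 red cell genes on the marker list 9 had a row, and 5 of these were listed at 0 in both libraries, Klf1 and Alas2 among them, which does not show that red cell RNA was absent. Hbb-bs stood at 11.1 FPKM (WT) and 5.72 FPKM (KO), and Hbb-bt was listed at 0 and at 3.24. The list summed to 19.1 and 30.8 FPKM, most of the latter from the erythropoietin receptor gene Epor at 7.97 and 21.1. Their part in the heme genes was not tested.

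**Figure D3:**
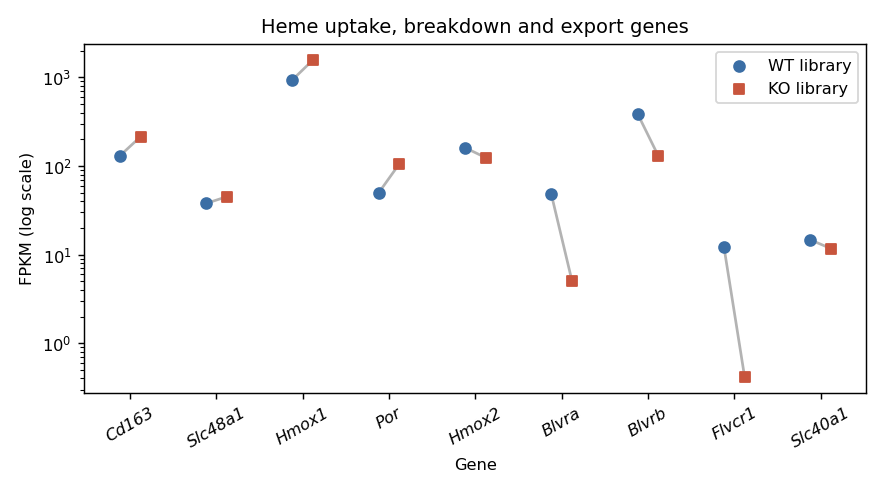
FPKM (y axis, log scale) of genes for heme uptake, breakdown and export (x axis) in the WT library (circles) and the KO library (squares), 1 library each. Cd163, Slc48a1, Hmox1 and Por are higher in KO, whereas Hmox2, Blvra, Blvrb, Flvcr1 and Slc40a1 are lower, with Blvra at 48.1 and 5.04 FPKM.

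Factors that control Hmox1, ferritin and ferroportin transcription were compared because these genes share them. Of 10 regulators, 2 were past 3-fold higher in KO, none was past 3-fold lower, and the median change was 0.56, against 13.6%, 13.7% and 0.03 over all genes. Where both libraries had to reach 1 FPKM none was past 3-fold, against 5.66% higher and 5.89% lower (11.5% in all) of all genes under that filter, and the median was 0.42. Nfe2l2, which encodes NRF2, an activator of Hmox1 and the ferritin genes, stood at 179 FPKM (WT) and 223 FPKM (KO), a change of 0.31. Bach1, the repressor that heme releases from the same sites, was at 52.6 and 79.6 FPKM, a change of 0.59. Of the small Maf partners, Maff was at 96.8 and 52.3 FPKM, Mafg at 9.49 and 23.6, and Mafk at 37.5 and 103. Spic, which red pulp macrophages of the spleen need for iron recycling, stood at 0.294 FPKM (WT) and 22.7 FPKM (KO), on an estimated 3 and 306 fragments. Bach2, a relative of Bach1 best known in lymphocytes, was at 0.980 and 10.7 FPKM. Both genes were under 1 FPKM in WT. In the ranges of expression where Spic and Bach2 lie, 14.6% and 45.6% of all genes were past 3-fold.

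Other genes for iron uptake and handling were then counted. Of 26 listed genes 24 had a row, 7 of them at 0 in both libraries, and 17 could be compared. Of these, 2 were past 3-fold higher in KO, 1 was past 3-fold lower and 14 were neither, with a median change of -0.12. Over all genes these shares were 13.6% and 13.7%. None of the list was past 3-fold where both libraries had to reach 1 FPKM. Under that filter 5.66% of all genes were past 3-fold higher and 5.89% lower. Trf, which encodes transferrin, stood at 418 FPKM (WT) and 508 FPKM (KO), a change of 0.28. Of the poly(C)-binding chaperones that hand iron to ferritin, Pcbp1 was at 91.7 and 84.4 FPKM and Pcbp2 at 130 and 91.9, changes of -0.12 and -0.50. Ncoa4, the receptor that takes ferritin to the lysosome for breakdown, was at 30.7 and 46.5 FPKM, a change of 0.58. Fbxl5, which senses iron and marks IRP2 for degradation, was at 19.1 and 17.3 FPKM.

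The genes of that list past 3-fold were all low. Slc39a14, a zinc and iron importer, stood at 0.599 FPKM (WT) and 4.66 FPKM (KO). Hamp, which encodes hepcidin, the hormone that removes ferroportin from the membrane, was at 4.07 FPKM in WT, an estimated 10 fragments, and was listed at 0 in KO. Lcn2, which encodes lipocalin-2, a protein that binds iron-carrying siderophores, was at 0.960 and 9.79 FPKM. Lcn2 is abundant in neutrophils, whose markers are given above. The part of these cells in the Lcn2 values was not tested.

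**Figure D4:**
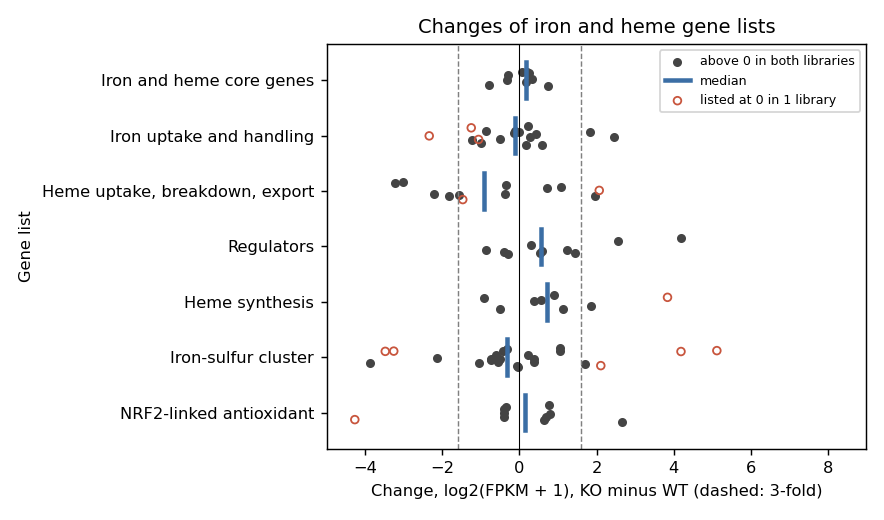
Change in log2(FPKM + 1), KO minus WT (x axis), of each compared gene (points) in the iron and heme gene lists (y axis), with the list median as a bar and genes listed at 0 in 1 library as open circles. The 9 core genes, all at 1 FPKM or more in both libraries, lie within 3-fold (dashed lines), while the lists around them spread further. The lists were not matched to the core genes for level of expression, on which the spread depends. Where related genes also had to reach 1 FPKM in both, 3 of 61 were past 3-fold higher and 4 lower. Over all genes under that filter 11.5% were past 3-fold. With 1 FPKM needed in either library, as drawn, medians run from -0.92 for heme uptake, breakdown and export to 0.72 for heme synthesis.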

How the data were processed

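Poly(A) RNA of sorted ATM was sequenced, with 1 library per genotype. The authors deposited 1 table that gives each gene an FPKM value in WT and in KO. Per the labels, CASAVA 1.8.2, TopHat2 2.0.9, Cufflinks 2.2.1 and mm9 were used, and annotation and filters are not given in the sources used here. FPKM values are not counts, so no count model was used. The "mut" column was read as KO, since the other column is named WT.

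Of 20749 rows, 401 full repeats were dropped and 18 further rows of an identifier were summed. Symbols were found for 98.5% of identifiers. Coordinates and hairpin sequences come from GENCODE M21 on GRCm38, not the authors' build. Genes that reached 1 FPKM in either library were compared as log2(FPKM + 1), with a 3-fold threshold as used by the study. Genes with a mean under 1 FPKM were left out of the ranges of expression.

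Fragments were estimated from the smallest FPKM x kb value shared within 3% by at least 10 genes with a single coding transcript (0.167 in WT, 0.131 in KO). In WT 11 genes lay at this step and 10 below it, and in KO 10 and 3, so the fragment numbers and the intervals made from them are approximate. Values were multiplied by the longest coding transcript. PCR copies are not independent molecules, so intervals cover counting error only.

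The genes and lists were chosen with earlier results of these data known. Genes named beyond the core genes were those past 3-fold with at least 1 FPKM in both libraries, the 2 highest of each list and a few set by name. Genes past 3-fold but lower than that and some markers were named after their values were seen. The ratio of Fth1 to Ftl1 was not analysed here, and Ftl1 alone was set against Slc40a1. Alternatives were other pseudocounts, scalings, filters and a 2-fold threshold. Python 3.11.15, pandas 2.3.3 and scipy 1.17.1 were used.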

Additional observations from a re-analysis of the deposited data

How the results depend on the processing

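No paired analysis was possible because there is a single library on each side, and leaving out a library leaves no comparison. The changes of the 9 core genes were recomputed 54 times with other pseudocounts, scalings and row handling. All 54 kept their direction and stayed within 1.5-fold of the reported value, an allowance used because there is no replicate spread. Hmox1 lay between 0.72 and 0.82, Tfrc between -0.83 and -0.72, and the median of the core genes between 0.17 and 0.22. Their counts past the threshold stayed at 0, also at 2-fold. Aco1, between 0.03 and 0.12, is close to the shifts of up to 0.067 that scaling alone makes.

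For the related lists, together 13 of their 80 compared genes were higher and 10 lower past 3-fold, near the 27.3% of all genes. Where both libraries had to reach 1 FPKM the counts were 3 and 4 of 61, and the share over all 7586 such genes was 11.5%. This filter drops genes that are low in 1 library, and so removes large changes by construction. Without a pseudocount, where genes at 0 drop out, 9 genes of these lists were higher and 6 lower. At 2-fold 19 were higher and 16 lower, and 45.6% of all genes compared were past 2-fold. The pooled median of -0.05 became 0.01 with scaling to the upper quartile, which by construction adds up to 0.067 to every change. The median for iron uptake and handling became 0.08 without a pseudocount. Of the other alternatives for single lists, 120 were within the allowance and 17 moved by more. These 17 were all counts past the threshold, for which direction was not judged. For heme gene regulators and for heme synthesis, 2 higher genes became 0 where both libraries had to reach 1 FPKM. For iron uptake and handling, 2 higher and 1 lower became 2 and 3 with a pseudocount of 0.1. Adding the 6 Fthl17 genes could not move the Ftl1 ratio, since they were listed at 0, and does not address reads shared with Ftl1 copies. Of the core genes Ireb2 had the fewest fragments, an estimated 41 in WT, while Spic, Lcn2, Hamp and Flvcr1 rest on 3, 5, 10 and 13 in 1 library, and of all genes at 1 to 10 FPKM 45.6% were past 3-fold.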

Other observations

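Genes for making heme were examined first among the other lists. Of 8 heme synthesis genes compared, 6 had values above and 2 below those of WT, 2 were past 3-fold higher and none was past 3-fold lower, with a median change of 0.72. Over all genes 13.6% were past 3-fold higher and 13.7% lower. Where both libraries had to reach 1 FPKM, none of the heme synthesis genes was past 3-fold and their median was 0.47. Under that filter 5.66% of all genes were past 3-fold higher and 5.89% lower. Alas1, the rate-limiting enzyme, stood at 15.3 FPKM (WT) and 23.0 FPKM (KO), and Urod, a later enzyme of the pathway, at 10.7 and 24.3 FPKM. Tmem14c, which moves a heme precursor inside mitochondria, was at 34.8 and 17.8 FPKM. Uros was at 13.3 FPKM in KO with 0 listed for WT, and Ppox was at 0.868 and 5.79 FPKM. Alas2, the red cell form of the first enzyme, was listed at 0 in both libraries.

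Iron-sulfur cluster genes, which use much of the iron that enters mitochondria, were split. Of 23 compared, 9 had values above and 14 below those of WT, with a median change of -0.32. In KO 4 were past 3-fold higher and 4 past 3-fold lower, and 5 of these 8 were listed at 0 in 1 library. Of all genes compared 27.3% were past 3-fold, and 45.6% of those at 1 to 10 FPKM. At 10 to 100 FPKM, where Iscu and Hscb lie, the share was 14.6%. Where both libraries had to reach 1 FPKM, 1 was past 3-fold higher and 1 lower, against 5.66% and 5.89% of all genes. Iscu, the scaffold on which clusters are built, stood at 70.0 FPKM (WT) and 3.83 FPKM (KO), a change of -3.88. Hscb, a co-chaperone that acts with Iscu, was at 33.8 FPKM in KO with 0 listed for WT. Glrx5, which takes clusters on from the scaffold, was at 2.36 and 9.96 FPKM. The genes of the list with the highest mean of both libraries were closer, with Ciao2b at 174 and 130 FPKM and Fdx1l at 57.3 and 75.4.

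Antioxidant genes that share NRF2 with Hmox1 were examined last. Of 10 compared, 1 was past 3-fold higher and 1 past 3-fold lower in KO, with a median change of 0.15, and 13.6% and 13.7% of all genes passed in those directions. The median was 0.64 where both libraries had to reach 1 FPKM and 0.65 without a pseudocount, since Nqo1 drops out. Nqo1, a common readout of NRF2, was at 18.3 FPKM in WT, an estimated 170 fragments, and was listed at 0 in KO. Osgin1 was at 5.68 and 40.9 FPKM, Txnrd1 at 78.7 and 126, and Prdx1 at 376 and 286.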
